A study of Homo sapiens with 4 samples.

Results

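ATP-binding cassette (ABC) transporters were examined in RNA-seq data of H1299, a human cell line derived from a non-small-cell lung cancer. The members were the protein-coding genes with a symbol of subfamilies ABCA to ABCG, together with TAP1, TAP2 and CFTR, which gave 49 of the 19926 protein-coding genes in the annotation. These genes have 535 of the 227368 transcripts in the deposited count table. Cells received either 5 μM HgCl2 or the solvent, 0.6% EtOH, for 48 h, and both groups were cells of the same line. Each group has 2 columns, replicates 1 and 2. The treatment text of the sample labels gives 5 μM for all 4 samples, while the titles and the study's methods separate the HgCl2 samples from the EtOH samples, and this separation is used here.

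ABC proteins bind and hydrolyse ATP through paired nucleotide-binding domains, and most of them move a substrate across a membrane. In mercury toxicology the family is known mainly through the ABCC subfamily, also called multidrug resistance-associated proteins, which export anionic conjugates, among them metals bound to glutathione. Other subfamilies move lipids and sterols (ABCA, ABCG), drugs, peptides and mitochondrial substrates (ABCB), or fatty acyl-CoA into peroxisomes (ABCD). ABCE and ABCF proteins have no membrane domain and act on ribosomes.

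The 2 columns of a group differed by less than counting noise. The variance of their difference was 0.505 times that of counting noise in EtOH and 0.516 times in HgCl2, against 31.8 between the groups. Each group was therefore counted as 1 sample, no p-value is given, the difference between the groups has no replicate check, and whether their columns overlap reflects counting error only. The column totals lie between 4720978 and 5053120 counts. Of the markers of the line, VIM (vimentin) had 620 and 628 counts in EtOH and 501 and 511 in HgCl2, KRT8 (keratin 8) had 53 and 58 against 4 and 4, KRT18 had 18 to 31 in the 4 columns, and LGALS1 had at most 2. The markers of blood and liver cells, PTPRC, CD3E and ALB, were at 0 in all columns, and the endothelial PECAM1 had 1 to 5 counts. A low count does not show absence where few bases of a gene are covered by 1 listed transcript only. The longest such run in coding transcripts is 0 bases for CD3E, 72 for ALB and 16 for LGALS1, against 1031 for PTPRC.

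Sequences from the 4 compared ABC transcripts with the largest differences are shown first, since they are not the sequences of the usual mRNAs. Most counts in this table were on transcripts that have some sequence to themselves among those listed. For 4 transcripts called at least 2-fold different below, most of this own sequence lies inside an intron of the canonical transcript of the gene (GRCh38, exon and intron numbers of the canonical transcript in GENCODE 44). In each line, capitals mark bases covered by no other listed transcript, shown for 130 bases, and the lower-case flanks are 20 bases on each side.
ABCC10-206: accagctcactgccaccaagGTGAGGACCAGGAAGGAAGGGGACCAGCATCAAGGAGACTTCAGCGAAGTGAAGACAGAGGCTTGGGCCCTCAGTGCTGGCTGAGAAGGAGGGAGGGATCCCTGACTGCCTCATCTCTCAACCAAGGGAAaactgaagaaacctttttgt
ABCC5-213: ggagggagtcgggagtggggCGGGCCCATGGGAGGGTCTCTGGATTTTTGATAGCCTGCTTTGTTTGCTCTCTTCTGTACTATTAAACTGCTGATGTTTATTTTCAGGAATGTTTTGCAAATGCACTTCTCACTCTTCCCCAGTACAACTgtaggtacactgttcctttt
ABCD3-205: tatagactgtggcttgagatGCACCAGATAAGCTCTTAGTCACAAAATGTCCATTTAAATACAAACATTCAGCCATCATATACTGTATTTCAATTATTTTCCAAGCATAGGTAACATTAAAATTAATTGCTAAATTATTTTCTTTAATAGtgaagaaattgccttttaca
ABCD3-206: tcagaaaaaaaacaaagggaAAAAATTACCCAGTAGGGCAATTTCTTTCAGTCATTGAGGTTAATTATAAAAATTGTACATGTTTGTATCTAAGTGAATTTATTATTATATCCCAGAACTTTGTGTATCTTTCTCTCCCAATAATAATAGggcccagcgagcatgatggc

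The ABCC10-206 line is chr6:43434829-43434998 on the plus strand. Its capitals begin directly after exon 4, with the GT that opens intron 4, so these bases are present only in RNA in which intron 4 had not been spliced out there. The ABCC5-213 line is chr3:183983415-183983584 on the minus strand, in intron 5, and its capitals are the end of a first exon of 142 bases followed by a GT. The ABCD3-205 line is chr1:94483020-94483189, the end of intron 9, and the ABCD3-206 line is chr1:94480314-94480483, the end of intron 8, both on the plus strand. In both ABCD3 lines the capitals end with the AG that closes the intron, and the lower-case bases after it open the next canonical exon.

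Most ABC genes were counted at or near 0. A count was present on 72 of the 535 transcripts and in 34 of the 49 genes, and 15 genes (30.6%) were at 0 in all 4 columns, against 41.8% of all protein-coding genes. A count of 0 was not read as absence. In 13 of the 49 genes (26.5%, against 27.4% of all protein-coding genes) no coding transcript has 150 bases in a row of its own, and transcripts with such a run held 98.8% of the ABC counts. Among these 13 are ABCC1 and ABCC4, the exporters MRP1 and MRP4, the mitochondrial ABCB6 and ABCB8, the lipid transporters ABCA2, ABCA7 and ABCA8, the potassium channel subunit ABCC8, the translation factors ABCF1 and ABCF3, ABCG5 and the readthrough gene ABCF2-H2BK1. The canonical ABCC1 transcript has 0 bases of its own and the gene had 0 counts, so its level was not measured here. The other 36 genes have such a run, and of these 8 were at 0, namely ABCA4, ABCA9, ABCB4, ABCB5, ABCG2, ABCG4, ABCG8 and CFTR. At this depth a 0 allows up to 3 counts in a column.

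**Figure D1:**
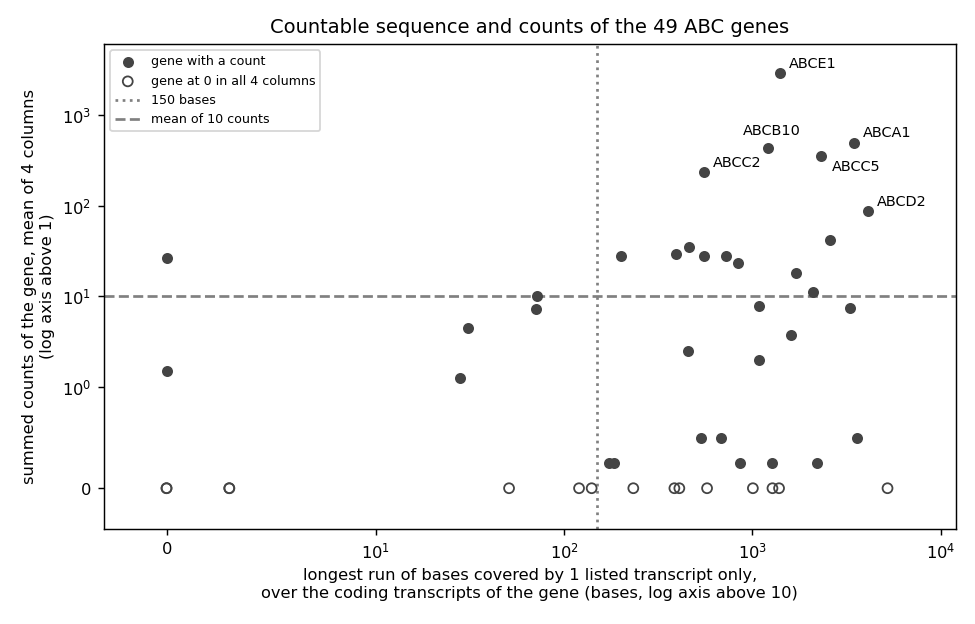
Each point is 1 of the 49 ABC genes. The x axis gives the longest run of bases, over its coding transcripts, that no other listed transcript covers (bases, log axis above 10), and the y axis the summed counts of the gene as a mean of the 4 columns (log axis above 1). Open points are the 15 genes at 0, and the 6 named genes, with a mean of at least 50 counts, all lie to the right of 150 bases.

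A mean of at least 10 counts over the 4 columns was required for a comparison, and 17 transcripts of 15 genes passed. Summed over its transcripts, a gene passed in 17 cases, the same 15 and also ABCA5 and ABCB8. A member low in 1 group could still pass through the other. Examples are ABCC10-206 (means of 2.5 in EtOH and 39 in HgCl2), ABCD3-205 (24 and 1.5), ABCB8 (17 and 3) and ABCA5 (17.5 and 5). Log2 fold changes (HgCl2 over EtOH) come from edgeR fitted on all 11891 transcripts or all 9259 genes, with exact (Clopper-Pearson) 95% intervals of the count ratio that cover counting error only. A transcript or gene is called higher or lower where this interval leaves out 0.

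Of the 17 ABC transcripts, 6 were higher in HgCl2 (35.3%, against 33.8% of all transcripts tested) and 8 were lower (47.1%, against 31.1%). At least 2-fold higher were 2 of the 17, against 18.6% of all, and 6 were at least 2-fold lower, against 19.6% of all. The median log2 fold change was -0.48 over the 17 and 0.01 over all transcripts. Of the 17, 11 had a mean of 10 to 50 counts, where 27.0% of all transcripts were at least 2-fold higher and 30.2% at least 2-fold lower, and 7 of the 8 ABC transcripts called 2-fold lie there. None of the 5 with a mean of at least 200 counts was called 2-fold, and of all transcripts at that level 2.80% were at least 2-fold higher and 2.73% at least 2-fold lower. The balance depends on the scaling. On the scale of the deposited FPKM values, which are 1.25 times higher per count in the HgCl2 columns, the median of all transcripts moved by 0.29, and 7 ABC transcripts were higher and 5 lower. Of the calls, 58.3% of those of ABC transcripts were then higher in place of 42.9%, and 68.3% of those of all transcripts in place of 52.1%.

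**Figure D2:**
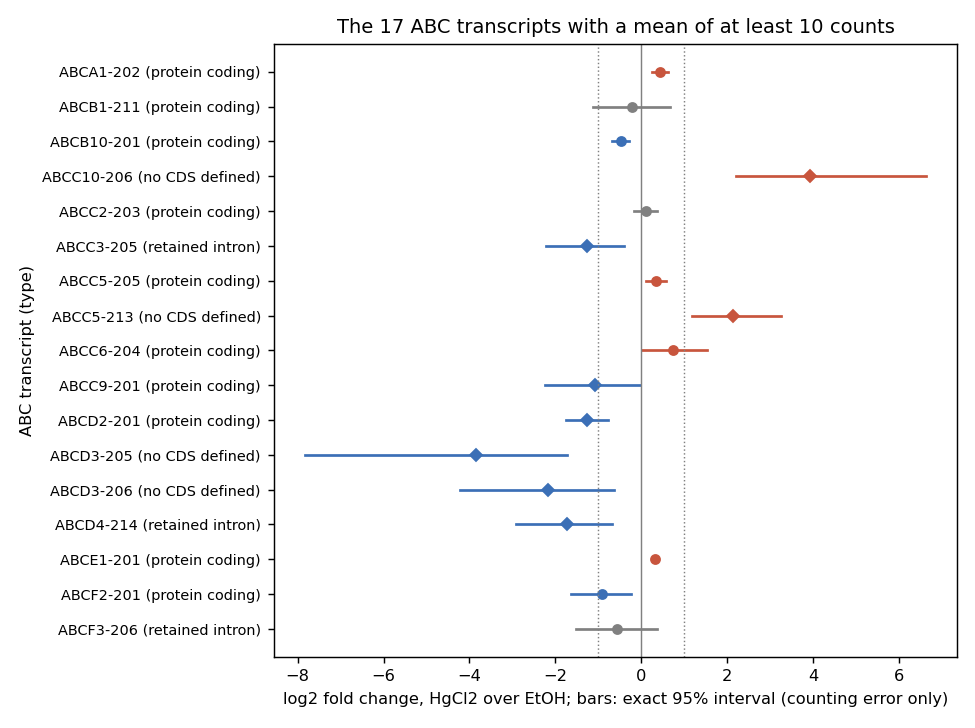
Log2 fold change of the 17 ABC transcripts that reached a mean of 10 counts, with the transcript type in brackets, and bars for the exact 95% interval of counting error. Red points are higher and blue points lower in HgCl2, grey points have an interval that includes 0, and diamonds mark the 8 changes of at least 2-fold (dotted lines).

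By summed counts, 5 of the 17 ABC genes were higher (29.4%, against 32.6% of all genes tested) and 9 were lower (52.9%, against 32.1%). Of these, 1 was at least 2-fold higher (ABCC10, against 12.5% of all) and 6 were at least 2-fold lower (ABCA5, ABCB8, ABCC3, ABCD2, ABCD3 and ABCD4, against 19.3% of all). The median was -0.87 for ABC genes and -0.03 for all genes. With at least 10 counts in every column, 13 ABC genes were tested, with 1 at least 2-fold higher and 3 at least 2-fold lower. The difference of medians was then -0.23 in place of -0.85. Among all genes with a mean of 10 to 50 counts, where 11 of the 17 lie, 35.1% were at least 2-fold lower and the median was -0.51. On the FPKM scale 6 genes were higher and 5 lower, which is 54.5% higher among the calls in place of 35.7%, and among all genes 65.5% in place of 50.3%.

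**Figure D3:**
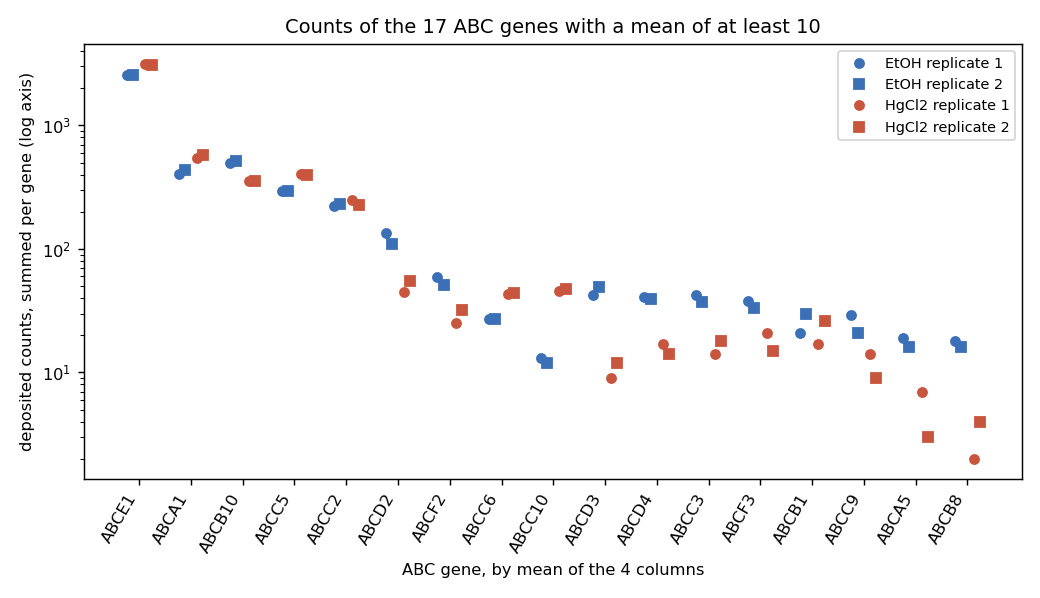
Deposited counts summed per gene in each of the 4 columns (log axis) for the 17 ABC genes with a mean of at least 10, ordered by mean. EtOH columns are blue and HgCl2 columns red, circles are replicate 1 and squares replicate 2. The columns of a group lie close together, and ABCE1 stands above the rest with 2574 to 3158 counts.

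**Figure D4:**
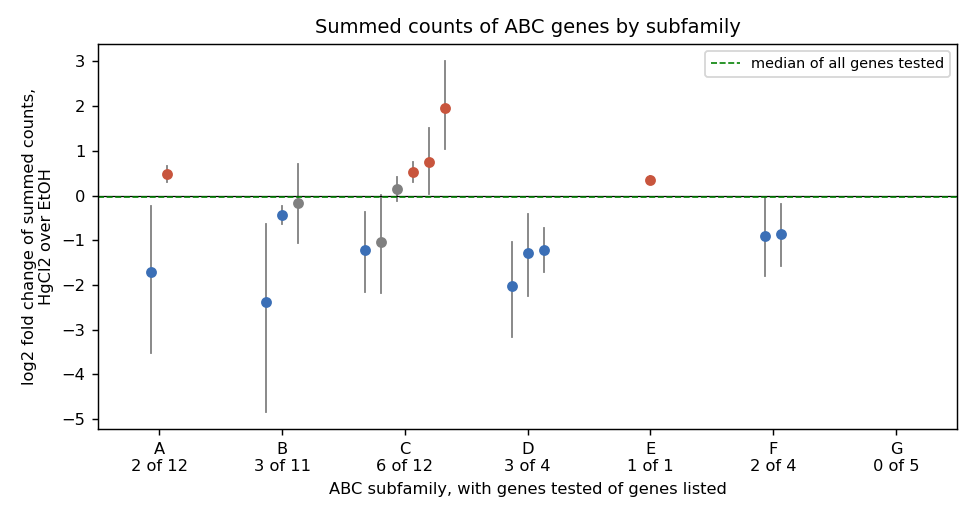
Log2 fold change of the summed counts of each tested ABC gene by subfamily, with exact 95% intervals of counting error. Red points are higher and blue points lower in HgCl2, grey points have an interval that includes 0. The 3 tested ABCD genes lie between -2.03 and -1.21, whereas the 6 tested ABCC genes run from -1.22 to 1.96.

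ABCC members included both higher and lower genes. Of 12 ABCC genes with CFTR, 9 had a count and 6 were tested, of which 3 were higher and 1 lower, with a median log2 fold change of 0.33. Their summed counts were 642 and 631 in EtOH and 779 and 753 in HgCl2. Of the 9 exporters of conjugates alone, 5 were tested, with 3 higher and 1 lower. Among all genes tested, 32.6% were higher and 32.1% lower. The tested transcripts of the 3 higher exporters (ABCC5, ABCC6 and ABCC10) and of the lower ABCC3 had their own bases in introns of the canonical transcript. ABCC2 alone among the tested exporters was measured on its canonical mRNA, and it was called neither higher nor lower.

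ABCC2 (MRP2), which exports glutathione and glucuronide conjugates across apical membranes, was measured on its canonical mRNA. ABCC2-203 (ENST00000647814, chr10:99782640-99852594) has 3410 bases of its own, of which 2860 are coding. It had 222 and 229 counts in EtOH and 246 and 226 in HgCl2, and the groups overlapped. The log2 fold change was 0.10 (interval -0.17 to 0.37), which leaves out a 2-fold change in either direction. On the FPKM scale the value was 0.39 (0.12 to 0.66).

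ABCC5 (MRP5), an exporter of cyclic nucleotides and of organic anions, had most counts on a short coding transcript. ABCC5-205 (ENST00000427120) has 5 exons, in contrast to 30 in the canonical transcript, and its 2723 own bases all lie in intron 5, mostly as its 3′ untranslated region. It had 284 and 281 counts in EtOH and 358 and 346 in HgCl2, with both HgCl2 columns above both EtOH columns. This gave a log2 fold change of 0.35 (0.12 to 0.58). The canonical ABCC5 transcript has 4 bases of its own, so the full-length mRNA was not measured.

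ABCC5-213 (ENST00000492216), which has no coding sequence defined, starts 177 bases beyond the end of ABCC5-205 within the same intron, with the first exon printed above. It rose from 10 and 12 counts to 46 and 50, a log2 fold change of 2.14 (1.19 to 3.25). The share of ABCC5 counts on it was 3.72% in EtOH and 11.9% in HgCl2. Both measured ABCC5 transcripts were higher in HgCl2 on each scale tried.

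ABCC10 (MRP7), an exporter of lipophilic anions and of drugs, was the only one of the 17 tested ABC genes called at least 2-fold higher by its sum, while 2 genes were so called on the FPKM scale. It had 13 and 12 counts in EtOH and 46 and 47 in HgCl2, a log2 fold change of 1.96 (1.04 to 3.0). The increase lay on ABCC10-206 (ENST00000443426, no coding sequence defined), which went from 3 and 2 counts to 38 and 40, a 15.2-fold ratio with a log2 interval of 2.21 to 6.64. All of its 420 own bases are in introns 1 and 4. The remaining ABCC10 counts did not follow it. ABCC10-207, annotated as a retained intron transcript of the 3′ part, had 6 and 8 counts in EtOH and 6 and 3 in HgCl2. The ABCC10-206 share of the gene was 20% in EtOH and 83.9% in HgCl2.

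ABCC3 (MRP3), which exports glucuronides and bile salts at the basolateral side, had counts on a retained intron transcript only. ABCC3-205 (ENST00000503337) had 42 and 37 counts in EtOH and 14 and 18 in HgCl2, a log2 fold change of -1.27 (-2.21 to -0.40). Its 899 own bases are in intron 25 of 31 exons, while the canonical ABCC3 transcript, with 551 bases of its own, had 0 counts.

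ABCC9, a regulatory subunit of ATP-sensitive potassium channels and no exporter, had 29 and 21 counts in EtOH and 14 and 9 in HgCl2 on ABCC9-201 (ENST00000261200). The log2 fold change was -1.08 (-2.24 to -0.03), which was no longer past counting error by total counts (-2.18 to 0.03) or on the FPKM scale. By the gene sum the interval was -2.19 to 0.01. The transcript has 0 bases of its own in GENCODE 44, and the deposited FPKM values imply a length of 8293 bases in the authors' annotation instead of 8668.

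ABCC6, outside the rule for named transcripts and given because it is the remaining tested ABCC gene, had 26 and 26 counts in EtOH and 42 and 44 in HgCl2 on ABCC6-204. The log2 fold change was 0.75 (0.02 to 1.52), and it was not past counting error (0.69, -0.04 to 1.46) when all transcripts were required to have 10 counts in every column. This short transcript covers bases of intron 2 near the start of the gene. Pseudogene copies of the start of ABCC6 are listed as ABCC6P1 and ABCC6P2, and the assignment of reads between such copies is uncertain. ABCC11 (7 and 6 counts in EtOH, 8 and 10 in HgCl2), ABCC12 and ABCC4 were too low for a comparison.

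**Figure D5:**
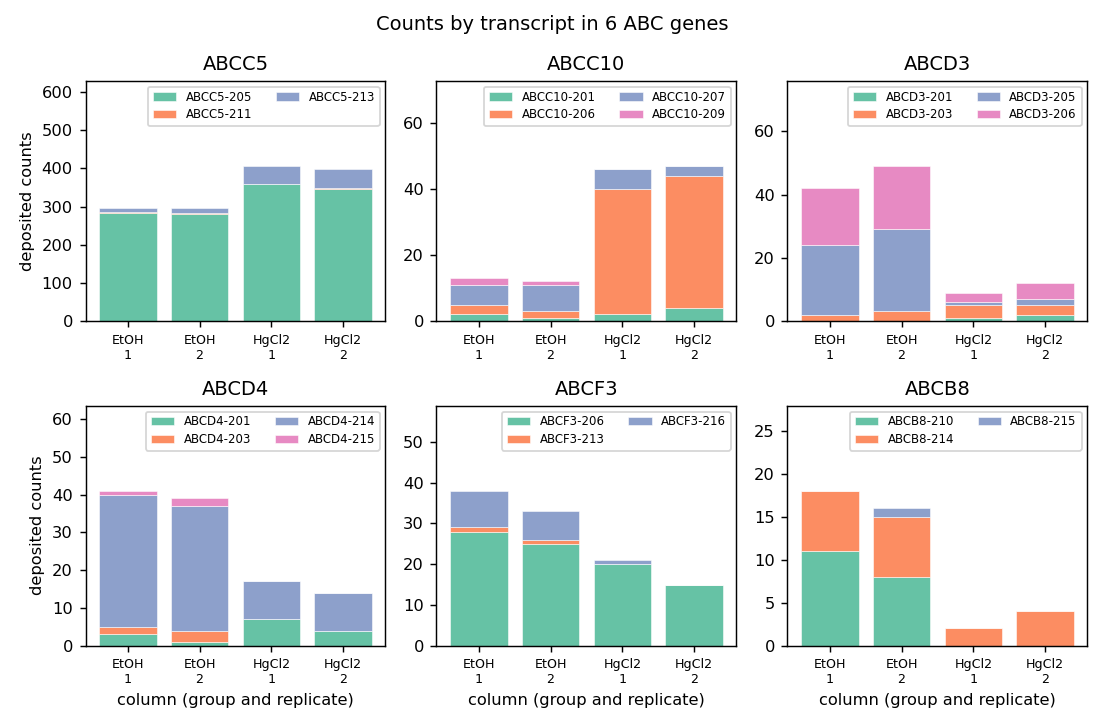
Deposited counts per column in 6 ABC genes, with each colour 1 transcript that had a count. ABCC10-206 makes up the rise of ABCC10, ABCC5-205 and ABCC5-213 both rise, ABCD3-205 and ABCD3-206 shrink, and ABCB8-210 is at 0 in both HgCl2 columns.

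ABCD proteins work in pairs, and ABCD2 and ABCD3 import fatty acyl-CoA and related compounds into peroxisomes, whereas ABCD4 takes part in lysosomal vitamin B12 export. All 3 tested members were at least 2-fold lower in HgCl2 by summed counts, with log2 fold changes of -1.21 to -2.03. Of all genes, 19.3% were at least 2-fold lower, and of those with a mean of 10 to 50 counts, as ABCD3 and ABCD4 have, 35.1%. The HgCl2 columns of ABCD3 had 9 and 12 counts, near the minimum of 10. The summed counts of the subfamily were 218 and 198 in EtOH and 71 and 81 in HgCl2. Of the 3 tested members, ABCD2 alone had most of its counts on its canonical mRNA.

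ABCD2-201 (ENST00000308666, chr12:39550033-39619803) is the single listed transcript of ABCD2, so all of its 6290 bases are its own. It had 135 and 109 counts in EtOH and 45 and 55 in HgCl2, with no overlap between the groups. This was a log2 fold change of -1.26 (-1.76 to -0.77), 2.39-fold lower, and on the FPKM scale the value was -0.96 (-1.47 to -0.48), still lower but under 2-fold.

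ABCD3 (PMP70), the abundant peroxisomal membrane protein, had 42 and 49 counts in EtOH and 9 and 12 in HgCl2. Most counts lay on ABCD3-205 and ABCD3-206, whose own bases are mostly in introns 9 and 8. The counts give no position within a transcript. ABCD3-205 (ENST00000484213) had 22 and 26 counts against 1 and 2, a log2 fold change of -3.86 (-7.84 to -1.73). ABCD3-206 (ENST00000493416) had 18 and 20 against 3 and 5, with -2.18 (-4.23 to -0.63). The canonical ABCD3 transcript has 66 bases of its own, and the coding transcripts of the gene had 3 counts in all, so its mRNA was not measured.

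ABCD4 had 41 and 39 counts in EtOH and 17 and 14 in HgCl2. Of these, 35 and 33 against 10 and 10 lay on ABCD4-214 (ENST00000489678), a retained intron transcript whose own bases are in introns 4 and 7, with a log2 fold change of -1.72 (-2.92 to -0.69). The coding transcripts of ABCD4 had 15 counts over the 4 columns, all on the canonical ABCD4-201. These were 3 and 1 in EtOH and 7 and 4 in HgCl2, so they did not follow the fall and were too few for a comparison.

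ABCE1, which splits ribosomes into subunits after termination, was the most counted ABC gene. ABCE1-201 (ENST00000296577, chr4:145098311-145129524) had 2574 and 2567 counts in EtOH and 3153 and 3099 in HgCl2, with the HgCl2 columns above the EtOH columns. This was a log2 fold change of 0.31 (0.24 to 0.39), a ratio of 1.24, and 0.25 to 0.60 over the scalings and filters tried. All 1702 of its own bases are 3′ untranslated region, so the value describes that end of the mRNA. Per kilobase of own sequence the transcript had 1510 counts in EtOH and 1837 in HgCl2, and the next highest ABC transcripts were ABCB10-201 in EtOH with 182 and ABCC5-213 in HgCl2 with 338.

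The ABCF proteins, which bind ribosomes and include homologues of a yeast activator of the kinase GCN2, had fewer counts. ABCF2-201 had 59 and 51 counts in EtOH and 25 and 32 in HgCl2, with a log2 fold change of -0.92 (-1.63 to -0.24) that was -0.63 (-1.33 to 0.05) on the FPKM scale. ABCF3 had 38 and 33 against 21 and 15 by sum, with -0.90 (-1.81 to -0.05), on transcripts with retained introns only, and this was not past counting error on the FPKM scale (-0.66), with the FPKM filter (-0.83) or with no filter (-0.74). ABCF1 had 3 to 7 counts per column.

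The mitochondrial members of subfamily ABCB carry substrates linked to heme and iron-sulfur biology. ABCB10, an inner membrane transporter on which heme synthesis depends, was measured on its canonical mRNA over 2779 own bases, 1509 of them coding. ABCB10-201 (ENST00000344517, chr1:229516582-229558707) had 497 and 512 counts in EtOH and 353 and 354 in HgCl2. The groups did not overlap, and the log2 fold change was -0.48 (-0.68 to -0.28), 1.40-fold lower. On the FPKM scale it was -0.19 (-0.39 to 0.01), so the decrease was not past counting error there.

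ABCB8 had 18 and 16 counts in EtOH and 2 and 4 in HgCl2, with a log2 interval of -4.84 to -0.64. ABCB8-210, with no coding sequence defined, had 11 and 8 counts against 0 and 0. This was 3.10-fold lower with the HgCl2 mean set to 3 counts, and its log2 interval ended at -1.05. ABCB6 (1 to 2 per column) was too low for a comparison. For ABCB6 and ABCB8 the coding transcripts had 0 counts.

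ABCB1, the drug pump P-glycoprotein, had 21 and 30 counts in EtOH and 17 and 26 in HgCl2. The groups overlapped, and the log2 fold change was -0.22 (-1.12 to 0.67), an interval that includes a 2-fold decrease, and 0.07 on the FPKM scale. ABCG2, the breast cancer resistance protein, and ABCB4 and ABCB5 were at 0, and the bile salt pump ABCB11 had 1 count.

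The peptide transporters had counts under the minimum. TAP1 and TAP2, which together carry peptides into the endoplasmic reticulum for loading on MHC class I, had 10 and 30 counts over the 4 columns. TAP2-203 (ENST00000485701), annotated as a retained intron transcript, had 0 and 0 counts in EtOH and 16 and 9 in HgCl2. This was 4.25-fold higher with the EtOH mean set to 3 counts, and its log2 interval began at 1.57. The deposited FPKM of TAP2-203 implies a length of 274 bases in the authors' annotation, against 6194 in GENCODE 44, so the bases counted were not those of the later model. The coding transcripts of TAP2, with 3773 own bases, had 4 counts. The lysosomal peptide transporter ABCB9 had 8 and 7 counts in EtOH and 0 and 0 in HgCl2. This was 2.38-fold lower with the HgCl2 mean set to 3 counts, and its log2 interval ended at -0.58.

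ABCA proteins move lipids. ABCA1, which loads cholesterol and phospholipid onto apolipoprotein A-I, was measured over 8676 own bases of its canonical transcript, 5348 of them coding. ABCA1-202 (ENST00000374736, chr9:104781006-104928155) had 407 and 435 counts in EtOH and 541 and 580 in HgCl2, with no overlap between the groups. The log2 fold change was 0.44 (0.26 to 0.63), 1.36-fold higher, and it was past counting error on each scale and filter tried (0.38 to 0.73).

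ABCA5, a lipid transporter of late endosomes, had 19 and 16 counts in EtOH and 7 and 3 in HgCl2 over 4 transcripts, with a log2 fold change of -1.71 (-3.52 to -0.24). It was not past counting error without HgCl2 replicate 2 (-1.23) or on the FPKM scale (-1.47). The other 10 ABCA genes had at most 3 counts in any column. Of the ABCG subfamily, whose members export sterols and urate, 1 of 5 genes had a count, ABCG1 with 1 in each HgCl2 column. Its coding transcripts have a run of 533 bases of their own and had 0 counts.

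The 17 tested transcripts divide by the kind of sequence counted, which the selection of genes did not use. In 8 the transcript is the canonical mRNA, and these held 87.5% of all ABC counts. ABCC9-201 is among these 8 but has 0 bases of its own, so the sequence counted on it is not known. Of these, 2 were higher and 4 lower, and 2 (ABCC9-201 and ABCD2-201) were at least 2-fold lower. In the other 9, which held 10.5% of the counts, the own bases lie in introns of the canonical transcript, apart from 3 bases of ABCD3-205. Here 4 were higher and 4 lower, with 2 at least 2-fold higher and 4 at least 2-fold lower. Of all tested transcripts that are not canonical, 27.1% were at least 2-fold higher and 19.9% at least 2-fold lower, and of the canonical ones 10.2% and 19.4%. The kinds also differ in count level, since 8 of the 9 ABC transcripts on intron bases had a mean under 50 counts, against 3 of the 8 canonical ones, and nothing particular to ABC genes is read from this split. Retained intron transcripts of ABC genes together had 174 and 157 counts in EtOH and 91 and 83 in HgCl2, and coding transcripts 4287 and 4286 against 4816 and 4789. Transcripts with no coding sequence defined had 77 and 81 against 98 and 103. ABCE1-201 held most of the coding counts. These sums were not compared with those of all transcripts, and nothing particular to ABC genes is read from them. Polyadenylated RNA was sequenced, and intron bases do not give the level of the spliced canonical mRNA.

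Genes around the transporters were compared by lists, to be read against the 32.6% of all tested genes that were higher and the 32.1% that were lower. For glutathione supply and conjugation, 13 of 17 genes had a count and 10 were tested, of which 5 were higher and 1 lower, with a median log2 fold change of 0.44. SLC7A11, the cystine importer, had 2890 and 2915 counts in EtOH and 3826 and 3820 in HgCl2 (0.47, 0.40 to 0.54). GCLM, the modifier subunit of glutamate-cysteine ligase, had 722 and 701 against 973 and 956 (0.51, 0.37 to 0.65), and the catalytic GCLC had 27 and 29 against 26 and 20.

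Changes of at least 2-fold in this list rested on few counts. GSS (glutathione synthetase) went from 10 and 9 to 48 and 52, of which 47 and 49 in HgCl2 and 0 in EtOH were on the retained intron transcript GSS-206. MGST1, a membrane-bound glutathione transferase, went from 6 and 7 to 34 and 33 (2.42, 1.21 to 3.92), with most counts on a coding transcript with 51 own bases. GGT7, of the gamma-glutamyltransferase family, fell from 25 and 33 to 8 and 9 (-1.68, -3.0 to -0.56), mostly on a transcript marked for nonsense-mediated decay. GSTP1 and GSTO1 were at 0.

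Of 7 genes for the uptake of thiol-bound mercury, SLC3A2 alone had a count. This heavy chain of amino acid exchangers had 126 and 106 counts in EtOH and 36 and 32 in HgCl2 (-1.69, -2.29 to -1.13), with 57.0% of them on 1 retained intron transcript. Its light chains SLC7A5 and SLC7A8 were at 0.

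In the iron-sulfur and heme list, 3 of 12 genes were tested, with 1 higher and 0 lower. Among those under the count minimum, NFS1 (13 and 13 against 3 and 3, -4.49 to -0.18) and SLC25A38 (17 and 9 against 5 and 2, -4.06 to -0.05) had log2 intervals below 0. SLC25A37 (mitoferrin-1), the iron importer that binds ABCB10, had 1191 and 1225 counts in EtOH and 1126 and 1146 in HgCl2 (-0.01, -0.13 to 0.10). ISCU, the iron-sulfur scaffold, had 101 and 97 against 148 and 140 (0.61, 0.24 to 1.0).

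In the list of ribosome recycling and stalling, 8 of 9 genes were tested, with 2 higher and 2 lower and a median of -0.00. EIF2S2 and EIF2S3, subunits of eIF2, had the most counts and log2 fold changes of -0.02 and 0.01. EIF2AK4, which encodes GCN2, fell from 33 and 36 to 6 and 7 counts (-2.31, -3.81 to -1.11), spread over several transcripts.

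For peptide loading, 5 of 12 genes were tested, with 1 higher and 3 lower. PDIA3, the disulfide isomerase of the loading complex, fell from 389 and 401 to 118 and 118 counts (-1.67, -1.98 to -1.37), with 98.2% of them on its canonical transcript. ERAP2, an aminopeptidase that trims peptides, fell from 172 and 162 to 81 and 76 (-1.01, -1.42 to -0.62). Of its counts, 88.4% were on ERAP2-202, which has 0 bases of its own, so the sequence counted on it is not known. On the FPKM scale ERAP2 was at -0.77 (-1.17 to -0.37), still lower but under 2-fold.

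In the peroxisome list, 3 of 7 genes were tested and all 3 were higher. Under the count minimum, PEX19 had 14 and 12 counts against 3 and 2, with a log2 interval below 0 (-5.05 to -0.32), and PEX14 had 9 and 8 against 2 and 1 (-6.42 to 0.09). PEX3, which inserts peroxisomal membrane proteins, had 396 and 447 counts against 493 and 480 (0.28, 0.09 to 0.47). For sterol control of ABCA1 and ABCG1, 2 of 8 genes were tested and both were lower, and SREBF2, under the count minimum, had 16 and 10 counts against 1 and 1 (-9.04 to -0.89). RXRB, a partner of nuclear receptors, had 44 and 36 counts against 21 and 23 (-0.79, with an upper bound of -0.00). The 5 channel subunits and scaffolds of ABCC8, ABCC9 and CFTR were at 0.

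On the FPKM scale the values of genes rose by 0.25. RXRB (-1.36 to 0.24) was then not past counting error, SLC25A37 (0.23) and EIF2S2 (0.23) turned to higher, EIF2S3 (0.26) became higher, and VIM was at 0.02.

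Promoter letters were searched in RefSeq sequences of GRCh38.p14, from 250 bases before to 50 after each start, on both strands. These were found for 39 of the 49 genes (58 promoters). The core of the antioxidant response element, TGACNNNGC, was in 20.7% of ABC promoters and in 13.3% of all 35116, and the core of the metal response element, TGCGCNC or TGCACNC, in 39.7% and 29.6%. Sites of both kinds overlapped in 1 ABC promoter. Counted by gene, where any promoter of the gene could match, the antioxidant core was present for 12 of the 39 and the metal core for 20. Of the genes with a promoter there, the antioxidant core was present for 1 of 5 that were higher (ABCC10) and 2 of 8 that were lower (ABCA5 and ABCD4), and the metal core for 3 of 5 and 5 of 8. A match describes letters and not a bound site.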

How the data were processed

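Poly-A RNA of H1299 cells was sequenced as read pairs. The authors used Trim Galore 0.6.5 for trimming, STAR 2.5.4b for alignment to GRCh38 and Rsubread 2.0.1 for counting on Ensembl 98 transcripts. The deposited counts are not normalized, and the counting options are not given in the sources used here. For the deposited FPKM values the authors used DESeq2 1.26.0 and its median-ratio scaling.

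Members and lists were chosen with earlier results of these data known. Columns were assigned by group and replicate in their names. Replicates 1 and 2 of a group were compared with counting noise and counted as 1 sample, so p-values are not given. Transcripts were named from GENCODE 44, in which 98.3% of identifiers were found, and bases covered by 1 listed transcript only were counted on it. Log2 fold changes were computed with edgeR 4.0.16 (R 4.3.3, glmQLFit, TMM) on all transcripts, and on sums per gene, with a mean of at least 10 counts over the 4 columns. Exact 95% intervals (scipy 1.17.1) used mean counts and effective library sizes. Fold values against a group at 0 set that group to 3 counts and leave out the counting error of the other group. These steps were run on simulated counts with 1 pool of counting noise per group. That simulation has no differences between cultures or libraries, so it says nothing about calls made with 1 sample a group. A change was called where the interval left out 0, and called 2-fold where it also reached 2-fold.

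Values per column are given for the most counted transcript of each member with a summed mean of at least 50 counts and for every other member transcript called 2-fold. Partner genes are named where called 2-fold, otherwise the 2 most counted of a list. ABCC6, ABCF2, ABCF3, ABCB1, ABCA5, ABCB8, ABCB9, TAP2 and further members are named beyond this rule, after their values were seen, as are GCLC, GSTP1, GSTO1, SLC7A5, SLC7A8, NFS1, SLC25A38, PEX19, PEX14 and SREBF2. A few genes of the members and lists are counted but not reported here by name. Alternatives changed the filter, the scaling, the fit (DESeq2 1.42.0), the replicate block and the columns entered. Protein sequences were not used here.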

Additional observations from a re-analysis of the deposited data

How the results depend on the processing

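With DESeq2 size factors, with the DESeq2 fit and with the replicate number as a block, all counts of calls were those reported (with the replicate block, 6 transcripts higher and 8 lower, 5 genes higher and 9 lower, and differences of medians from all features of -0.49 and -0.85). Same-numbered columns share only a number, and the labels name no shared batch. No tested ABC gene or transcript reversed its direction while called. For partner genes the FPKM scale alone is given, where SLC25A37 and EIF2S2, at -0.01 and -0.02 and not called before, turned to higher. With at least 10 counts in every column, 5 ABC transcripts were lower, 1 was at least 2-fold higher and 3 at least 2-fold lower, 3 genes were at least 2-fold lower, and the differences of medians were -0.28 for transcripts and -0.23 for genes. This filter tests 13 of the 17, since it removes features low in either group. With the filter of the study, an FPKM mean over 1 in either group, 2 genes were at least 2-fold higher and the differences were -0.20 and -0.67. With no filter, 4 transcripts and 2 genes were at least 2-fold higher and the differences were -0.11 and -0.07. On the scale of the deposited FPKM values, 5 transcripts and 5 genes were lower, 3 of each at least 2-fold lower, and 2 genes at least 2-fold higher. The 2 columns of a group count as 1 sample, so leaving one out shows counting error and says nothing about stability between samples. It gave 5 to 6 transcripts higher and 7 to 8 lower, 7 to 10 genes lower, 5 to 7 transcripts and 6 to 8 genes at least 2-fold lower, and a difference of gene medians of -0.95 to -0.66. ABCC9-201 lost its call without EtOH replicate 1 (-0.84) or HgCl2 replicate 2 (-0.80), ABCC6-204 without HgCl2 replicate 2 (0.72), and the ABCF3 sum without EtOH replicate 1 (-0.80) or HgCl2 replicate 2 (-0.68). The causes were not tested. Depth limits the ABC genes under 50 counts, where intervals span 2-fold or more, and shared sequence leaves the canonical mRNAs of 24 of 48 genes with a listed canonical transcript without a countable run of 150 bases.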

Other observations

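Transcripts of non-coding and pseudogene loci with ABC symbols were outside the members. Of 45 such transcripts of 18 genes, 13 had a count. The lncRNA transcript ENST00000542005, listed under ABCC6P2, had 34 and 31 counts in EtOH and 10 and 7 in HgCl2, a log2 fold change of -1.89 (-3.19 to -0.78), whereas ABCC6-204 was higher in HgCl2. The ABCC6P1 transcripts ENST00000546162 (0.34) and ENST00000565118 (-0.10) had intervals that include 0, as did the ABCA11P transcript ENST00000451020 with 44 and 42 counts in EtOH and 31 and 25 in HgCl2 (-0.59, -1.33 to 0.13). These loci were chosen for mention after their values were seen.

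The lengths implied by the deposited counts and FPKM values differ by more than 1% from GENCODE 44 in 5 of the 72 ABC transcripts with a count (ABCB1-211, ABCC6-205, ABCC9-201, TAP1-201 and TAP2-203) and in 2040 of 39438 of all transcripts with a count.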
